A study of Mus musculus with 4 samples.

Results

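Nuclei that carried Skint transcripts were picked out of intact mouse back skin and described by the rest of their RNA. A barcode was taken when it held at least 200 genes, at most 5% mitochondrial counts and at least 1 UMI (unique molecular identifier, a counted RNA molecule) of at least 2 of 7 genes, Skint5, Skint6, Skint9, Skint11, Il20ra, Scel and Pou2f3, of which at least 1 was a Skint gene. This gate took 222 of 6963 kept nuclei (3.19%, 95% Wilson interval 2.80 to 3.63%) in unwounded replicate 1 and 281 of 9770 (2.88%, 2.56 to 3.23%) in unwounded replicate 2, which is 503 of 16733 in all. Each of 2 unwounded C57BL/6 mice, wild type and 8 weeks old, gave 1 single-nucleus RNA library. A further 2 mice of the same strain and age gave libraries of full-thickness excisional wounds of the back, taken 1 day after wounding, which enter here only as a description beside the unwounded values. All groups were wild type.

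The interfollicular epidermis is a layered epithelium between the hair follicles. Its basal keratinocytes sit on the basement membrane through hemidesmosomes and divide, and cells that leave this layer switch their keratins, strengthen their desmosomes and build the cornified envelope and lipid barrier. Skint genes encode immunoglobulin-family membrane proteins of mouse epidermis and thymus, and Skint1 is known for its part in selecting the γδ T cells that live in mouse epidermis. Of the other gate genes, Il20ra encodes a receptor subunit for IL-20 family cytokines, Scel encodes sciellin of the cornified envelope, and Pou2f3 encodes a transcription factor of suprabasal epidermis.

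The gate decided the levels of its 7 genes, which are given only as a description. Skint6 had a UMI in 69.8% and 71.9% of gated nuclei and Skint5 in 59.0% and 63.3%, in replicates 1 and 2. Skint11 had one in 44.1% and 32.7%, Scel in 37.8% and 23.8%, Pou2f3 in 36% and 27.0%, Skint9 in 27.5% and 19.9%, and Il20ra in 14.4% and 16.4%. Most members sat at the edge of the gate: 121 of 222 and 180 of 281 held exactly 2 gate genes, and 101 in each library held 3 or more. None held all 7.

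The label was checked against 12 keratinocyte markers that the gate did not use. Their summed level was 4319 and 4403 CPM (UMIs summed over a class and scaled to the same total for every class) in gated nuclei, against 390 and 727 CPM in all other nuclei of the same libraries. All 12 markers had counts. Inside the gate the level followed the number of gate genes: the sum was 6863 and 7367 CPM in nuclei with 3 or more, and 2101 and 2646 CPM in nuclei with exactly 2. Just outside it, 655 and 1083 nuclei with 1 Skint gate gene and no other held 388 and 1009 CPM, and the 28 and 26 nuclei with at least 2 gate genes but no Skint gene held 4994 and 4183 CPM. Nuclei with no gate gene held 321 and 628 CPM.

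Not every member carried a keratinocyte marker. At least 1 of the 12 was found in 78.4% and 77.9% of gated nuclei and at least 3 in 55.0% and 36.7%, against 25.2% and 30.1%, and 1.46% and 1.40%, of nuclei without a gate gene. Among nuclei with exactly 2 gate genes, 38% and 30.6% held none of the 12. Among nuclei with 3 or more, 1.98% and 6.93% held none. The label is therefore used for the class as a whole and not for each barcode.

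**Figure D1:**
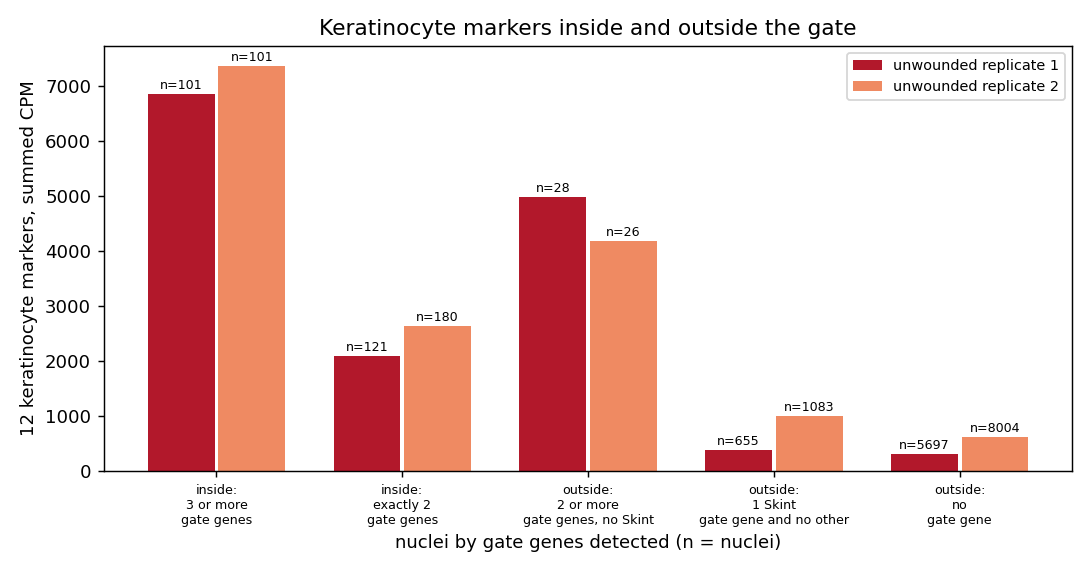
Summed level of 12 keratinocyte markers (CPM, vertical axis) in nuclei grouped by the gate genes they held, in the 2 unwounded replicates, with the number of nuclei above each bar. Nuclei with 3 or more gate genes reached 6863 and 7367 CPM, and nuclei with no gate gene 321 and 628 CPM.

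Markers of other cell types were present as well. The 6 fibroblast markers summed to 4910 and 6357 CPM in gated nuclei, against 10069 and 10585 CPM in the other nuclei, and at least 3 of them were found in 46.4% and 42.0% of gated nuclei, against 73.3% and 55.4%. The 5 skeletal muscle markers summed to 1897 and 1106 CPM in gated nuclei and to 6083 and 4747 CPM in the other nuclei. The 7 sebocyte markers ran the other way, with 828 and 1395 CPM in gated nuclei and 496 and 677 CPM in the other nuclei, and Soat1, Scd1 and Pparg were called higher by edgeR. The 7 T cell markers summed to 19.0 and 25.8 CPM in gated nuclei and 14.0 and 12.1 CPM in the other nuclei. The 5 Langerhans and dendritic cell markers summed to 60.1 and 38.7 CPM against 58.5 and 51.4 CPM. None of the 2 and 4 genes tested in these lists passed. Among them, Cd3e, Cd3d and Trdc had no count in gated nuclei of either library, where 3 counts are 9.49 and 12.9 CPM, and the Langerhans cell marker Cd207 had none. In each library 11 gated nuclei (4.95% and 3.91%) held at least 2 of 7 sebocyte markers.

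Gated nuclei held 316271 and 232327 UMIs in all, with a median of 1047 and 550 per nucleus, against 903 and 469 in the other nuclei. Malat1, a nuclear long non-coding RNA, took 7.57% and 6.56% of their UMIs and 9.44% and 8.31% of those of the other nuclei. The 2 unwounded libraries shared 30 barcode sequences, and none was gated in both. P-values below rest on 2 mice, with both classes summed within each mouse, and fewer nuclei of a type and less RNA per nucleus cannot be told apart in such sums. The gate chose nuclei by keratinocyte genes, so genes that accompany them had to differ from the other nuclei.

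Against all other unwounded nuclei, 987 of 13672 genes tested were higher in gated nuclei (7.22%) and 1054 were lower (7.71%), 14.9% in either direction, with edgeR's quasi-likelihood test at a Benjamini-Hochberg adjusted p under 0.05 and the 7 gate genes left out. DESeq2 called 539 higher and 329 lower. Klk5, Alox12, Krt17 and Ncald, named below, passed the filter on low counts through the class where they were high. Their direction was thus largely set by the filter, and they are given as a description. The list counts and medians hold such genes too. Differentiation keratins, desmosome genes and the Skint genes outside the gate were among the genes higher in gated nuclei. Genes of the follicle stem cell list were lower or did not pass.

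Of 22 tested genes of the cornified envelope and differentiation keratins, 17 were higher and none was lower, with a median log2 fold change of 2.86, against -0.10 over all genes tested. Krt10, a keratin of suprabasal epidermis (GRCm38 chromosome 11, 99385254 to 99389364, minus strand), had 335 and 310 CPM in gated nuclei and 15.2 and 38.4 CPM in the other nuclei. Both gated values lay far above both others, with a log2 fold change of 3.62 ± 0.21 (SE) and adjusted p = 1.84e-63 by edgeR's quasi-likelihood test. Krt77, another differentiation keratin, had 417 and 495 CPM in gated nuclei, against 25.8 and 75.1 CPM (log2 fold change 3.23 ± 0.17, adjusted p = 2.62e-76). Flg2, a filaggrin-related protein of the cornified layer, had 196 and 185 CPM against 14.2 and 32.1 CPM. Klk5, a serine protease of desquamation, had 28.5 and 68.9 CPM against 0.474 and 2.07 CPM, with a log2 fold change of 5.19 ± 0.65.

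The basal keratinocyte and hemidesmosome list was higher too, with less difference: 8 of 14 genes passed as higher, none as lower, and the median was 1.32. Trp63, the master transcription factor of stratified epithelia, had 775 and 671 CPM in gated nuclei and 122 and 169 CPM in the other nuclei (log2 fold change 2.23 ± 0.15). Col17a1, a transmembrane collagen of hemidesmosomes, had 326 and 271 CPM against 42.3 and 62.7 CPM. Krt5, the basal type II keratin, had 82.2 and 73.2 CPM against 28.3 and 37.7 CPM, and its adjusted p of 0.00266 by edgeR became 0.147 with DESeq2. Krt14, its type I partner, likewise passed with edgeR (log2 fold change 1.12 ± 0.31) and not with DESeq2 (adjusted p = 0.155).

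Of 15 desmosome genes tested, 13 were higher, with a median log2 fold change of 2.89. Dsp, desmoplakin, had 1110 and 1364 CPM in gated nuclei and 70.3 and 194 CPM in the other nuclei, the highest level of the 12 keratinocyte markers in the gated class. Its log2 fold change was 3.27 ± 0.16. Dsg1a, the desmoglein of upper layers, had 304 and 319 CPM against 11.4 and 28.4 CPM (log2 fold change 3.98 ± 0.22). Of 18 adherens and tight junction genes, 15 were higher and Magi3 was lower. Cgn, which encodes the tight junction protein cingulin, had 82.2 and 86.1 CPM against 2.96 and 3.69 CPM, with a log2 fold change of 4.55 ± 0.49.

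**Figure D2:**
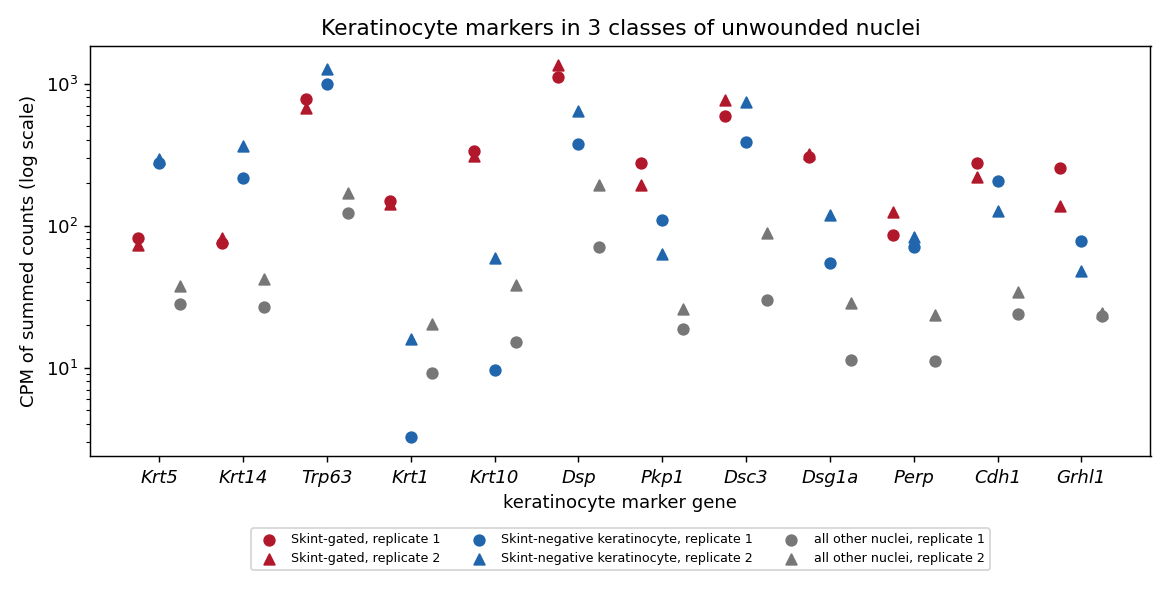
Level of 12 keratinocyte markers (CPM of summed counts, log scale) in gated nuclei, Skint-negative keratinocyte nuclei and all other nuclei of the 2 unwounded replicates, where circles are replicate 1 and triangles replicate 2. Dsp reached 1110 and 1364 CPM in gated nuclei, and Krt10 335 and 310 CPM.

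Of 26 barrier lipid genes, 14 were higher and none was lower. Sptlc3, a serine palmitoyltransferase subunit of ceramide synthesis, had 341 and 379 CPM in gated nuclei, against 27.6 and 34.4 CPM (log2 fold change 3.43 ± 0.19). Abca12, the lipid transporter of lamellar granules, had 364 and 185 CPM against 14.3 and 22.5 CPM (log2 fold change 3.82 ± 0.24). Alox12, a lipoxygenase outside that list, had 56.9 and 43.0 CPM against 0.474 and 2.22 CPM and ranked among the largest rises, at a log2 fold change of 5.26 ± 0.63.

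Part of the lipid list sat in few nuclei. The 22 gated nuclei with at least 2 sebocyte markers held 94.7% and 92.7% of all gated Fa2h UMIs, and 82.6% and 85.2% of those of Elovl6, while they held 11.3% and 14.3% of all gated UMIs. Fa2h, a fatty acid hydroxylase, passed as higher over all gated nuclei (log2 fold change 1.82 ± 0.16) and was lower without these nuclei, at -1.95 and adjusted p = 6.69e-07 by edgeR. Elovl6, a fatty acid elongase, had a log2 fold change of 2.09 ± 0.15 with them and -0.33 without them. The same nuclei held 6.84% and 1.26% of the Dsp UMIs and 2.83% and 1.39% of those of Krt10.

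Of 29 keratinocyte transcription factors, 16 were higher and none was lower. Gata3 had 367 and 306 CPM in gated nuclei and 30.2 and 34.3 CPM in the other nuclei (log2 fold change 3.28 ± 0.20). Grhl1, a grainyhead-like factor of desmosome and barrier genes, had 256 and 138 CPM against 23.1 and 24.2 CPM (log2 fold change 2.95 ± 0.26).

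All 7 Skint genes outside the gate were higher, at a median log2 fold change of 3.77. Skint10 (GRCm38 chromosome 4, 112711147 to 112774866, minus strand) had 190 and 241 CPM in gated nuclei, against 6.04 and 8.57 CPM (log2 fold change 4.78 ± 0.31). Skint3 had 278 and 288 CPM against 14.2 and 26 CPM. Members of the family are close in sequence and clustered in the genome, so how reads were divided among them is uncertain, and their levels are not independent of the Skint genes of the gate.

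Signalling genes divided. Of 22 epithelial cytokine and receptor genes, 8 were higher and 1 was lower. Il34, a ligand of the CSF1 receptor on which Langerhans cells depend, had 408 and 336 CPM in gated nuclei and 17.2 and 28.2 CPM in the other nuclei (log2 fold change 3.98 ± 0.20). Il20rb, which pairs with the gate gene Il20ra in the receptor, had 269 and 245 CPM against 36.1 and 41.8 CPM (log2 fold change 2.62 ± 0.21). Of 16 Notch genes, 9 were higher and 2 were lower. Notch3, a Notch receptor, had 190 and 202 CPM against 18 and 22.5 CPM (log2 fold change 3.18 ± 0.26), whereas Rbpj, the DNA-binding partner of all Notch receptors, was lower at -0.65.

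Smaller lists were mixed. Of 20 calcium, TRP and protein kinase C genes 6 were higher and 3 lower, among them Trpv3, a keratinocyte cation channel, with 60.1 and 64.6 CPM in gated nuclei against 6.27 and 8.13 CPM, and Prkca, with 436 and 357 CPM against 849 and 685 CPM. Of 15 retinoid and vitamin D genes 5 were higher and 2 lower: Rarb, a retinoic acid receptor, was lower at -1.91 ± 0.28, and Rarg, the other receptor named, was higher at 1.12 ± 0.17. Of 13 EGF family genes 3 were higher and 1 lower, with Erbb3 at 2.67 ± 0.45. One of the 3, Nrg4, had a log2 fold change of 1.25 ± 0.29 with the sebocyte-marker nuclei and -0.36 without them.

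The hair follicle stem cell and germ list ran the other way, with 7 of 19 genes lower and none higher. Lgr5, a marker of follicle stem cells, had 72.7 and 81.8 CPM in gated nuclei, against 259 and 198 CPM in the other nuclei (log2 fold change -1.69 ± 0.22). The other nuclei hold all remaining cell types, many with fibroblast markers. These falls therefore do not set follicle against interfollicular keratinocytes, and which nuclei carried this RNA was not tested. Of 10 upper follicle genes, 3 were higher, and one of them was Krt17 with 25.3 and 21.5 CPM against 2.37 and 3.55 CPM. None of 12 cell cycle genes tested passed in either direction, and at this depth a difference may not have been detectable: Mcm3 had 12.6 and 8.61 CPM in gated nuclei, near the level of 3 counts. The largest falls included Myh11, smooth muscle myosin, with 3.16 and 4.3 CPM against 52.6 and 35 CPM. Ncald, a neuronal calcium sensor, had no UMI in gated nuclei and 27.7 and 24.4 CPM elsewhere, which is at least 4.8-fold lower when 3 counts over both libraries stand for none.

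Detection per nucleus was compared after each nucleus was thinned to 500 UMIs, which left out 11 and 115 gated nuclei that were shallower. Fibroblast-rich nuclei were non-gated nuclei with at least 3 fibroblast markers and no UMI of Trp63, Krt5, Krt14, Krt15, Col17a1, Dsc3 or Dsg3. This choice took out nuclei with those keratinocyte RNAs, so low shares in the class were partly set in advance. After thinning, Krt10 was found in 17.1% and 11.4% of gated nuclei, against 1.04% and 1.35% of fibroblast-rich nuclei. Before thinning, the shares were 27.0% and 16%, against 1.92% and 2.32%. Il34 was found in 16.6% and 16.9% of thinned gated nuclei, against 0.573% and 1.07% of fibroblast-rich nuclei. In thinned Skint-negative keratinocyte nuclei, defined below, Krt10 was found in 0% and 3.85% and Il34 in 5.16% and 3.85%. The gated shares of both genes were above those of both classes in both libraries, with no test.

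Gated nuclei were next set against the 228 and 300 nuclei with no UMI of the 4 Skint gate genes and at least 2 of Trp63, Krt5, Krt14, Krt15, Col17a1, Dsc3 and Dsg3, with medians of 1008 and 575 UMIs. These 228 and 300 are called Skint-negative keratinocyte nuclei, although a nucleus can miss Skint UMIs through low depth alone. Because most genes that chose them mark basal cells, a lower level of differentiation genes in them is partly set by that choice. All genes of either gate were left out. This comparison shares the gated sums with the one above, so the values are given side by side and the calls are not independent.

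Against these nuclei, 236 of 5468 genes tested were higher in gated nuclei (4.32%) and 151 were lower (2.76%), 7.08% in either direction, by edgeR at an adjusted p under 0.05. Without the mouse as a block 134 were higher and 75 lower, and DESeq2 called 46 higher and 16 lower. The gated nuclei had more RNA of suprabasal keratins, cornified envelope proteins, Skint genes and Il34, and less of 4 follicle genes. Among genes named below, Krt78, Hal, Ptgs1, Tmprss4, Nectin4 and Mboat2 were low in Skint-negative nuclei of both libraries. Krt10, Abca12, Skint10 and Evpl did not reach the level of the filter on low counts in both libraries of these nuclei. All of these genes passed the filter through the gated nuclei. Their direction was thus largely set by the filter, and they are given as a description. The list counts and medians hold such genes too. Fibroblast markers were at 4910 and 6357 CPM in gated and 5970 and 6585 CPM in Skint-negative nuclei, with 0 of 6 passing. Skeletal muscle markers were at 1897 and 1106 CPM and 5889 and 6275 CPM, and 4 of 5 were lower in gated nuclei. The part of muscle RNA in the falls was not tested beyond leaving out nuclei with at least 3 markers of another type, after which Ttn, the sarcomere protein titin, no longer passed (log2 fold change -0.10). Ttn is itself among the markers that chose the nuclei left out, so this loss was largely set in advance.

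Of 29 cornified envelope and keratin genes listed, 14 had enough counts to be tested. Of those 14, 11 were higher and Tgm5, an epidermal transglutaminase, was lower at -1.80. The list median was 2.65, against -0.00 over all genes tested. Krt10 had 335 and 310 CPM in gated nuclei, against 9.68 and 59.6 CPM in Skint-negative nuclei (log2 fold change 3.35 ± 0.35, adjusted p = 4.63e-08 by edgeR, and 0.0895 by DESeq2). Krt77 had 417 and 495 CPM against 45.2 and 59.6 CPM (log2 fold change 3.15 ± 0.26). Krt78 had 79.0 and 51.7 CPM against 0 and 7.94 CPM, so that its ratio of summed counts was 18.9, with a 95% counting interval of 4.89 to 162. When gated nuclei were also held to the 7-gene keratinocyte gate, which left 87 and 84, Krt10 remained higher (log2 fold change 3.57) and Krt77 did so too (3.26), while the list count was 5.

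Enzymes and a protease were among the genes of largest rise. Mboat2, a lysophospholipid acyltransferase (GRCm38 chromosome 12, 24830879 to 24964397, plus strand), had 367 and 284 CPM in gated nuclei and 16.1 and 23.8 CPM in Skint-negative nuclei (log2 fold change 4.07 ± 0.33, adjusted p = 3.09e-10 by edgeR). Hal, histidine ammonia-lyase, which makes the ultraviolet-absorbing urocanic acid of the stratum corneum, had 94.9 and 103 CPM against 0 and 15.9 CPM (log2 fold change 3.74 ± 0.59). Ptgs1, a cyclooxygenase, had 101 and 94.7 CPM against 0 and 3.97 CPM, a ratio of summed counts of 55.3 with a counting interval of 9.51 to 2224. Tmprss4, a transmembrane serine protease, had 120 and 56.0 CPM against 6.45 and 3.97 CPM and did not pass with DESeq2 (adjusted p = 0.0614).

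Of 10 desmosome genes tested, 7 were higher. Dsp had 1110 and 1364 CPM in gated nuclei against 374 and 639 CPM (log2 fold change 1.35 ± 0.18). Evpl, envoplakin, had 126 and 172 CPM against 35.5 and 19.9 CPM, and Ppl, its partner periplakin, had 266 and 267 CPM against 87.1 and 63.5 CPM. Of 16 adherens and tight junction genes 3 were higher, which were Nectin1, Nectin4 and Cgn. Nectin4 had 101 and 133 CPM against 12.9 and 15.9 CPM (log2 fold change 3.01 ± 0.43). With DESeq2, Nectin1 (adjusted p = 0.111), Nectin4 (adjusted p = 0.0501) and Evpl (adjusted p = 0.0736) did not pass, and with the gated nuclei also held to the keratinocyte gate Cgn did not (adjusted p = 0.0763 by edgeR).

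Of 18 barrier lipid genes, 6 were higher and none was lower. Abca12 had 364 and 185 CPM in gated nuclei and 16.1 and 35.7 CPM in Skint-negative nuclei (log2 fold change 3.49 ± 0.35). Sptlc3 had 341 and 379 CPM against 110 and 71.5 CPM. Acer1, an epidermal ceramidase, passed with the mouse as a block (log2 fold change 1.21 ± 0.32, adjusted p = 0.0135 by edgeR) and not without it (adjusted p = 0.0548). Nor did Acer1 pass with DESeq2, or by edgeR without nuclei holding at least 3 markers of another cell type (adjusted p = 0.298).

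Of the 17 transcription factors tested, Grhl1 and Gata3 were higher and Bnc2 was lower. Gata3 did not pass without the mouse as a block (adjusted p = 0.0655 by edgeR) or with DESeq2, and Grhl1 did not with DESeq2 (adjusted p = 0.225). Grhl1 had 256 and 138 CPM in gated nuclei, against 77.4 and 47.7 CPM (log2 fold change 1.69 ± 0.28). Bnc2, a zinc-finger factor, had 91.7 and 142 CPM against 397 and 330 CPM (log2 fold change -1.65 ± 0.24). Of the 7 basal and hemidesmosome genes tested that the gates did not use, Itgb4, the hemidesmosome integrin, had 69.6 and 60.3 CPM against 161 and 123 CPM (adjusted p = 0.0191 by edgeR, and 0.0699 without the block). The other 6 did not pass. Itgb4 did not pass with DESeq2 or with at least 3 gate genes (adjusted p = 0.167 by edgeR). With the gated nuclei also held to the keratinocyte gate, Itgb4 had a log2 fold change of -0.59 and did not pass (adjusted p = 0.408 by edgeR).

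Of 7 Skint genes outside the gate, 6 were higher, with a median of 2.57. Skint10 had 190 and 241 CPM in gated nuclei and 9.68 and 39.7 CPM in Skint-negative nuclei (log2 fold change 3.21 ± 0.36). Skint3 had 278 and 288 CPM against 45.2 and 51.6 CPM (log2 fold change 2.57 ± 0.27). The Skint-negative nuclei were chosen to lack 4 Skint genes, and the reservation on read sharing applies here as well.

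Il34 and Il20rb were the 2 of 11 cytokine and receptor genes that passed, both higher. Il34 had 408 and 336 CPM in gated nuclei, against 80.7 and 91.3 CPM (log2 fold change 2.15 ± 0.24, adjusted p = 2.22e-07 by edgeR). Both Skint-negative values of Il34 exceeded those of all other nuclei, which were 17.2 and 28.2 CPM. Notch3 had 190 and 202 CPM against 64.5 and 51.6 CPM (log2 fold change 1.76 ± 0.29), and Notch2 had 218 and 301 CPM against 106 and 119 CPM (1.21 ± 0.24). These were the 2 of 13 Notch genes that passed with edgeR, and with DESeq2 neither did (adjusted p = 0.147 for Notch3 and 0.463 for Notch2).

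Of 16 calcium, TRP and protein kinase C genes, 4 were higher. One was Prkch, a protein kinase C of differentiating keratinocytes, with 294 and 211 CPM in gated nuclei against 113 and 167 CPM, and the others were Atp2b4, Orai1 and Prkcd. Without the mouse as a block none of the 4 passed by edgeR (adjusted p = 0.0900 for Prkch, 0.0895 for Atp2b4, 0.0873 for Orai1 and 0.133 for Prkcd), and with DESeq2 Prkch, Atp2b4 and Prkcd did not. None of 10 retinoid genes and none of 6 EGF family genes passed with edgeR. Erbb2, an EGF family receptor, had 50.6 and 99.0 CPM against 25.8 and 39.7 CPM (log2 fold change 1.18 ± 0.42, adjusted p = 0.0930).

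Of 20 cell cycle genes listed, 5 had enough counts to be tested. Those named here passed the filter on low counts through the Skint-negative nuclei, where they were high, so their direction was largely set by the filter and they are given as a description. Top2a, topoisomerase II of dividing cells, had 19.0 and 4.3 CPM in gated nuclei, against 126 and 115 CPM in Skint-negative nuclei (log2 fold change -3.18 ± 0.45, adjusted p = 9.16e-06 by edgeR). Cenpf, a kinetochore protein, had 9.49 and 4.3 CPM against 93.6 and 59.6 CPM (log2 fold change -3.33 ± 0.58). The gated sums behind these values were 6 and 1 UMIs of Top2a and 3 and 1 of Cenpf. With the gated nuclei also held to the keratinocyte gate, the log2 fold change was -2.30 for Top2a and -2.70 for Cenpf, and Anln, a protein of the cleavage furrow, did not pass (adjusted p = 0.0785 by edgeR).

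Of 11 hair follicle stem cell and germ genes, 4 were lower. Lgr5 had 72.7 and 81.8 CPM in gated nuclei and 194 and 147 CPM in Skint-negative nuclei (log2 fold change -1.13 ± 0.28). Pdzrn3 had 525 and 430 CPM against 997 and 774 CPM. With DESeq2 none of the 4 passed, and without the mouse as a block Tcf7l2 and Nfib did not. Lgr6, a stem cell receptor of the upper follicle and interfollicular epidermis, was lower at -1.20 ± 0.26 (adjusted p = 0.0610 by edgeR without the block), and Atp6v1c2, a proton pump subunit, was higher at 1.99 ± 0.48. Lgr6 did not pass with DESeq2 (adjusted p = 0.592). With the gated nuclei also held to the keratinocyte gate, Lgr6 was at -0.56 and did not pass (adjusted p = 0.336 by edgeR).

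**Figure D3:**
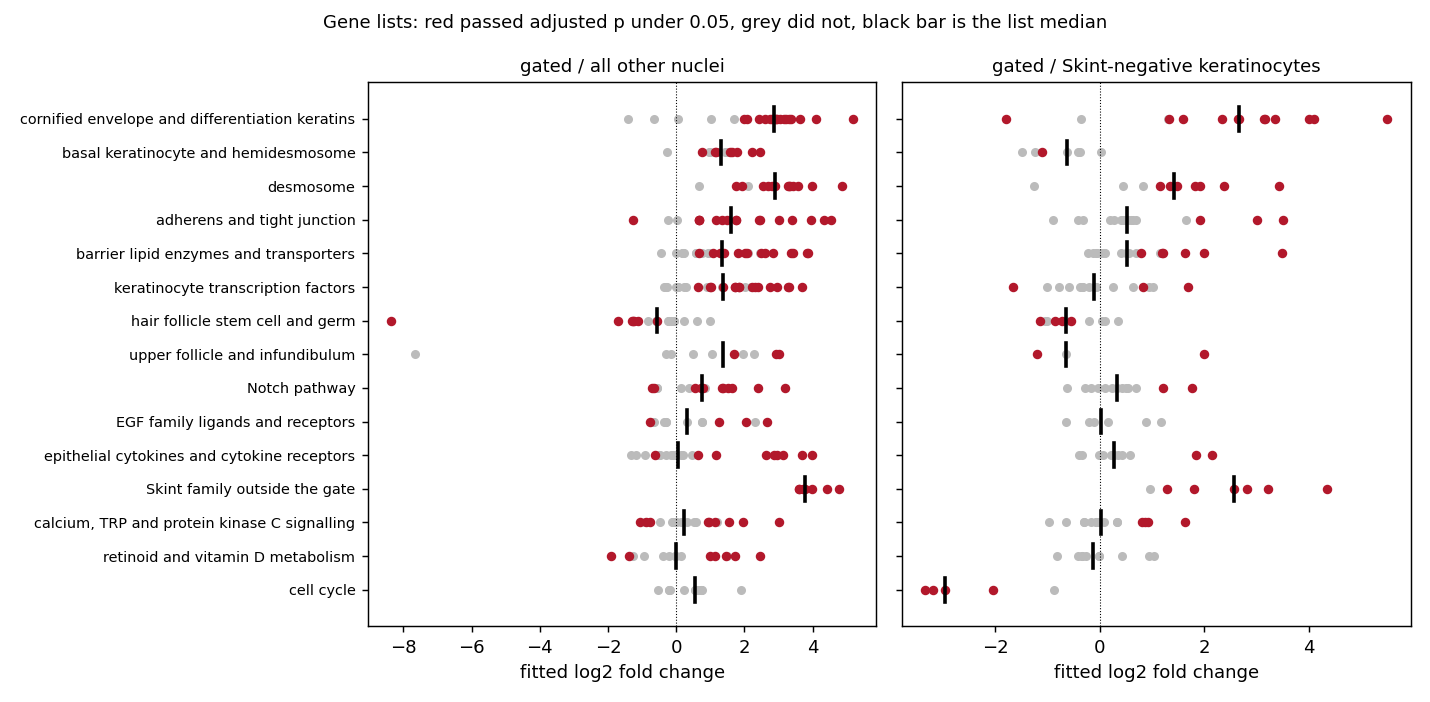
Fitted log2 fold change of every tested member of 15 gene lists, gated over all other nuclei on the left and gated over Skint-negative keratinocytes on the right, where red points passed an adjusted p under 0.05, grey points did not and black bars are list medians. The cornified envelope list had medians of 2.86 and 2.65, the basal list 1.32 and -0.63. Fitted values of genes with no UMI in one class, such as those far to the left, depend on the prior count and are no bounds.

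The gated nuclei also differed among themselves. Each was leaned to the set with more UMIs, a suprabasal set of 10 genes (Krt1, Krt10, Dsg1a, Dsc1, Abca12, Tgm3, Sbsn, Krtdap, Dmkn, Flg2) or a basal set of 7 (Trp63, Col17a1, Itgb4, Itga6, Lama3, Krt5, Krt14). By this count 81 and 97 nuclei leaned suprabasal and 82 and 86 basal, while 59 and 98 were tied, of which 49 and 77 held no UMI of either set. The classes are ranges and not types: 20 and 51 nuclei held 1 more suprabasal than basal UMI, and 21 and 45 held 1 fewer. The genes of both sets are left out below. Genes that accompany either set had to differ between the classes.

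Suprabasal-leaning over basal-leaning nuclei, 129 of 2202 genes tested were higher (5.86%) and 103 were lower (4.68%), 10.5% in either direction, by edgeR at an adjusted p under 0.05. DESeq2 called 26 higher and 12 lower. The genes of largest rise and fall passed the filter on low counts mostly through the class where they were high. Their direction was thus largely set by the filter, and they are given as a description. Of 29 cornified envelope genes listed, 7 had chosen the classes and 4 were tested, of which Krt77, Spink5 and Klk7 were higher. Of 8 desmosome genes Dsp and Ppl were higher, and of 11 adherens and tight junction genes Cgn was. With at least 3 gate genes, Dsp (adjusted p = 0.144 by edgeR) and Ppl (adjusted p = 0.152) did not pass. Of 9 barrier lipid genes Sptlc3 and Ugcg were higher and Cers4, Fa2h and Elovl6 were lower, and Sptlc3 did not pass with DESeq2 (adjusted p = 0.135). The 7 sebocyte markers summed to 168 and 502 CPM in suprabasal-leaning nuclei and to 1093 and 2057 CPM in basal-leaning nuclei. Without nuclei holding at least 2 sebocyte markers, 121 genes were higher and 72 lower, and 41 of the 103 falls were among them.

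Klk7, a serine protease of desquamation, had 106 and 142 CPM in suprabasal-leaning nuclei, against 0 and 12.7 CPM in basal-leaning nuclei. With 1 basal-leaning UMI, its ratio of summed counts was 25.5 with a 95% counting interval of 4.14 to 1050. Spink5, which encodes the inhibitor of these proteases, had 345 and 399 CPM against 22.6 and 50.8 CPM (log2 fold change 3.43 ± 0.47, adjusted p = 0.000652 by edgeR). Krt77 had 991 and 1017 CPM against 128 and 317 CPM. Klk7, Spink5 and Krt77 are differentiation genes like those that chose the classes, so their values are given as a description.

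Skint10 had 496 and 566 CPM in suprabasal-leaning nuclei and 7.54 and 50.8 CPM in basal-leaning nuclei (log2 fold change 4.4 ± 0.52, adjusted p = 0.000254 by edgeR). Of the 6 Skint genes tested 4 were higher. At least 3 gate genes were held by 58 of 81 and 55 of 97 suprabasal-leaning nuclei, and by 34 of 82 and 29 of 86 basal-leaning nuclei. Skint levels at the ends are thus not independent of the gate, and the reservation on read sharing applies here too. Cgn had 186 and 219 CPM against 0 and 25.4 CPM, a ratio of summed counts of 21.1 with a counting interval of 5.44 to 180. Eppk1, epiplakin, had 301 and 425 CPM against 37.7 and 25.4 CPM (log2 fold change 3.38 ± 0.47). Mboat2 had 965 and 669 CPM against 30.2 and 102 CPM (log2 fold change 3.83 ± 0.45), and Abca5, a lipid transporter, had 150 and 257 CPM against 15.1 and 12.7 CPM.

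Some genes did not pass between the 2 ends of the gated class. Il34 had 646 and 502 CPM in suprabasal-leaning nuclei and 362 and 381 CPM in basal-leaning nuclei (log2 fold change 0.67 ± 0.29, adjusted p = 0.170 by edgeR). Il20rb had 407 and 348 CPM against 234 and 267 CPM (adjusted p = 0.254). Egfr, the EGF receptor, had 1071 and 682 CPM against 958 and 800 CPM, and its values overlapped. Egfr had not passed as higher in gated nuclei in either comparison above. Notch3 had 354 CPM in suprabasal-leaning and 106 CPM in basal-leaning nuclei of replicate 1, and 232 and 292 CPM in those of replicate 2, so the libraries differed in direction.

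The largest falls included Fa2h, with 8.85 and 64.4 CPM in suprabasal-leaning nuclei and 468 and 1041 CPM in basal-leaning nuclei (log2 fold change -4.42 ± 0.45), and Acoxl, an acyl-CoA oxidase-like gene, with 35.4 and 12.9 CPM against 762 and 406 CPM. The nuclei with at least 2 sebocyte markers held 95.8% and 91.5% of all gated Acoxl UMIs. Elovl6 passed as lower (log2 fold change -2.30 ± 0.28) and had a value of 0.91 without those nuclei, where it did not pass. Dst, which encodes the hemidesmosome plakin dystonin, had 327 and 322 CPM against 973 and 711 CPM (log2 fold change -1.35 ± 0.29), and Tfap2a, an AP-2 factor, was lower at -1.85 ± 0.56. Dst did not pass with DESeq2 (adjusted p = 0.258) or after thinning (adjusted p = 0.0534 by edgeR), and Tfap2a did not without the mouse as a block (adjusted p = 0.0507 by edgeR) or with no filter (adjusted p = 0.0843).

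**Figure D4:**
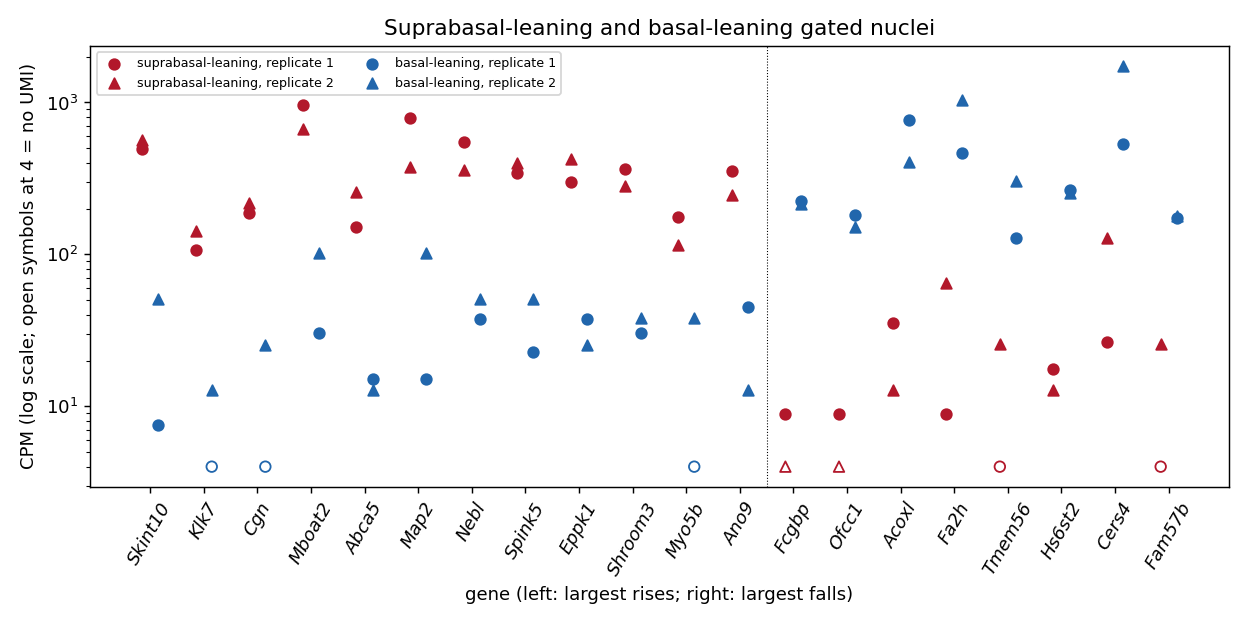
Level (CPM, log scale) of the 12 genes of largest rise, left of the dotted line, and the 8 of largest fall in suprabasal-leaning and basal-leaning gated nuclei of the 2 unwounded replicates, with open symbols for no UMI. Skint10 stood at 496 and 566 CPM in suprabasal-leaning nuclei, against 7.54 and 50.8 CPM, and Fa2h at 8.85 and 64.4 CPM, against 468 and 1041 CPM.

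Promoters of the genes of largest rise were read for 4 short motifs. These genes share a direction because they were ranked by it, and whether they share a regulator was not tested. The windows hold 250 bases before and 50 after the start, from RefSeq on GRCm38.p6, and both strands were searched. The AP-1 letters TGANTCA were in 7.81% of 32851 promoter windows, the TFAP2 letters GCCNNNGGC in 16.6%, the GRHL letters AACCNGTT in 2.09% and the letters TATAAA in 13.6%. Of the 10 leading rises over all other nuclei with a window, 0, 1, 1 and 1 held them in that order. Of the 9 over Skint-negative nuclei, 2, 1, 0 and 3 did, and of the 8 between suprabasal-leaning and basal-leaning nuclei 1, 0, 1 and 0 did. A gene was counted when any of its windows held the letters, whereas the shares over all promoters are per window. These counts are a description of few genes. Shown are Krt10, one of the keratins higher in both comparisons by edgeR (chr11:99389315-99389614, minus strand, with TATAAA in capitals from position 225), Cgn, among the largest rises over the other nuclei and between the 2 ends of the class (chr3:94786433-94786732, minus strand, with the GRHL letters in capitals on the reverse strand from position 222), and Hal, which makes urocanic acid (chr10:93488518-93488817, plus strand, with AP-1 letters from position 12 and, on the reverse strand, TATAAA from position 223 in capitals). A match is a description and not a binding site.
Krt10: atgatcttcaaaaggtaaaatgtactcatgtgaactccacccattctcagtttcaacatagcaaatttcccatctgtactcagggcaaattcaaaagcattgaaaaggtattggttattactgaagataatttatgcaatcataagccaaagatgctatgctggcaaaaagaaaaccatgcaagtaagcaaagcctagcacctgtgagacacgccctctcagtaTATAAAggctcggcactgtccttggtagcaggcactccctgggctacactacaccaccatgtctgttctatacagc
Cgn: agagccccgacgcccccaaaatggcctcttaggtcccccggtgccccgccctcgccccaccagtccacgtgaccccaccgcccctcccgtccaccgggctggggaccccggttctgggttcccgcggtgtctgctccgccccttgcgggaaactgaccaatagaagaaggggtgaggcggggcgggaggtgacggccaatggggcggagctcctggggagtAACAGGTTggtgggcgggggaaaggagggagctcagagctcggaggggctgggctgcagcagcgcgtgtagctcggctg
Hal: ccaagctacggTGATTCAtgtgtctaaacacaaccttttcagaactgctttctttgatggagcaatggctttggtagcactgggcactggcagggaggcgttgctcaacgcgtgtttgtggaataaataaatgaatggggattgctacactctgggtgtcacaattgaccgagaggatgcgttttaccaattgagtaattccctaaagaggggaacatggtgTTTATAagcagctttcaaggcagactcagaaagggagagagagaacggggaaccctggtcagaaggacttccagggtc

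In the wounded libraries the same gate took 202 of 2385 kept barcodes (8.47%) and 227 of 4330 (5.24%), against 3.19% and 2.88% in the unwounded libraries. These barcodes are given as a description with no test, since their RNA stood apart. Their 12 keratinocyte markers summed to 747 and 1170 CPM, against 4319 and 4403 CPM in unwounded gated nuclei. Krt10 had 3.85 CPM and no count, against 335 and 310 CPM. Malat1 took 0.0316% and 0.158% of their UMIs, against 7.57% and 6.56%.

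Over all kept wounded barcodes, the 7 gate genes stood at 1.13 to 1.69 times the level expected from their length and the UMI density of olfactory and vomeronasal receptor genes, which skin should not express. In the unwounded libraries they stood at 29.7 to 71.6 times. The receptor genes themselves took 7033 and 6525 CPM of the wounded libraries and 94.4 and 132 CPM of the unwounded ones. A wounded barcode that passes the gate is therefore not counted as a Skint-expressing nucleus here.

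**Figure D5:**
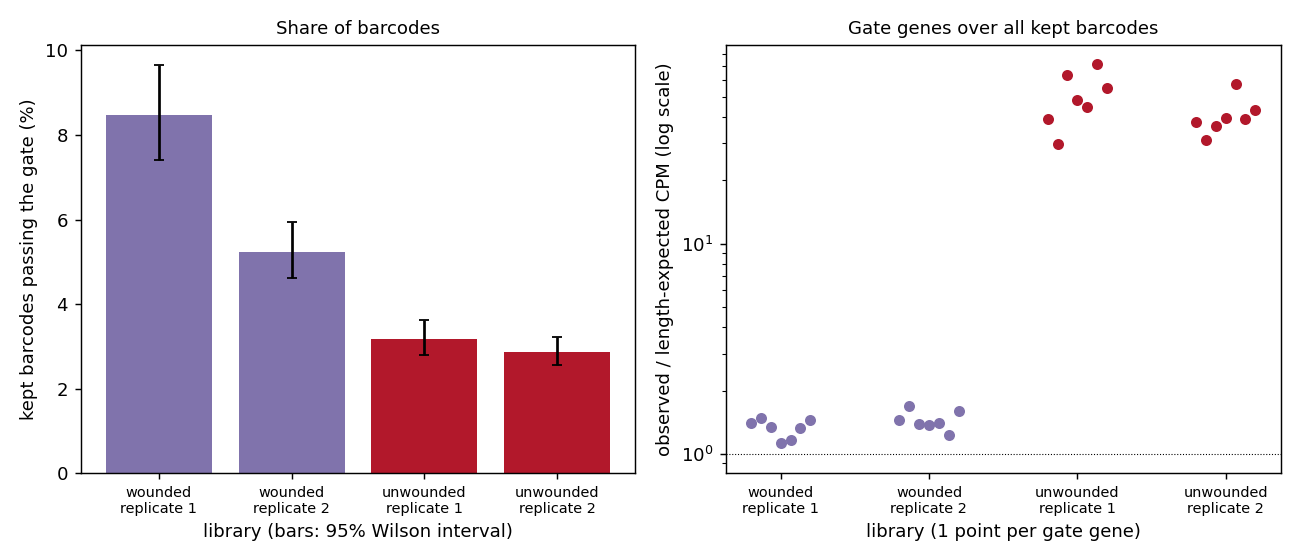
Left, share of kept barcodes that pass the gate in each library with 95% Wilson intervals, 8.47% and 5.24% in the wounded and 3.19% and 2.88% in the unwounded libraries. Right, level of each gate gene over all kept barcodes relative to its length-expected level (log scale, dotted line at 1), 1.13 to 1.69 in the wounded and 29.7 to 71.6 in the unwounded libraries.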

How the data were processed

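The deposited values are raw UMI counts from Cell Ranger 5.0.1 on GRCm38, per the submitters' processing notes, for 32285 genes per barcode; whether intronic reads were counted is not given in the sources used here. Counts were summed per library and class of nuclei. The members and gene lists were chosen with earlier results of these data known. Sums were compared with edgeR 4.0.16 (R 4.3.3) after filterByExpr and TMM scaling, by glmQLFit and glmQLFTest with the mouse as a block and Benjamini-Hochberg adjustment at 0.05 over all genes tested. SE is from the same fit, and CPM is relative to a class's summed counts. The model was tested on simulated data. Both classes of a library come from 1 mouse, and their deviations from the class means correlated at 0.232, 0.237 and 0.126 over genes in the 3 comparisons. DESeq2 1.42.0 was an alternative. Intervals and the limit of 3 counts cover counting error only. Scrublet (scanpy 1.11.5) called 0 doublets at its automatic threshold, so the 388 and 774 nuclei of highest score were left out as an alternative, 12 and 20 of them gated. Genes named were the 12 of largest rise and 8 of largest fall with at least 20 CPM and 1 direction in both libraries, and up to 4 members of smallest p per list, of which not all are named. Magi3, Rarg, Tgm5 and others named beside a list count were singled out after their values were seen. Of the genes, 32235 matched GENCODE by identifier.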

Additional observations from a re-analysis of the deposited data

Results flagged for a closer look

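The gate took 8.47% of kept barcodes in wounded replicate 1 and 5.24% in wounded replicate 2, against 3.19% and 2.88% in unwounded replicates 1 and 2. These values were picked out because they lie in libraries outside the 3 comparisons and above the level of the unwounded libraries. In wounded gated barcodes at least 2 keratinocyte markers were found in 16.8% and 9.69%, against 65.3% and 56.6% of unwounded gated nuclei. The difference in shares was not tested.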

How the results depend on the processing

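P-values rest on 2 mice, and the gate takes nuclei by a few UMIs, so shallow nuclei are missed and its edge is soft. The share of gated nuclei was 1.45% and 1.03% in the unwounded libraries with at least 3 gate genes and 1.87% and 2.34% after thinning to 500 UMIs, and 3.69% in unwounded replicate 2 with at least 400 genes. In the wounded libraries it was 1.80% and 0.531% with at least 3 gate genes, 20.7% and 12.8% with at least 400 genes, and 7.02% in replicate 2 after thinning. Against all other nuclei, 534 genes were higher and 575 lower after thinning, and 539 and 329 with DESeq2. Against Skint-negative nuclei the counts were 96 and 61 after thinning, 471 and 381 with at least 3 gate genes, 125 and 77 without nuclei holding a cell cycle UMI, 134 and 75 without the mouse as replicate block, and 46 and 16 with DESeq2, and 74 were lower without nuclei rich in markers of other cell types. Between suprabasal-leaning and basal-leaning nuclei they were 34 and 22 after thinning, 51 and 48 with at least 3 gate genes, 42 and 33 without nuclei rich in other markers, and 26 and 12 with DESeq2, and 156 and 155 were lower with at least 400 genes and without the highest Scrublet scores. The cause of these shifts was not tested. Against all other nuclei 6 genes changed sign: with at least 3 gate genes Elovl6 was at -0.13, Fa2h at -2.12, Nrg4 at -0.73, Soat1 at -2.55, Scd1 at -0.57 and Pparg at -1.88. Without nuclei holding at least 2 sebocyte markers they were at -0.33, -1.95, -0.36, -1.19, -0.64 and -1.33 in the same order, and after thinning Nrg4 was at -0.0084 and Pparg at -0.63. Soat1, Scd1 and Pparg are among those sebocyte markers, so their change without these nuclei was largely set in advance. Ryr1 was at 0.75 against Skint-negative nuclei without nuclei rich in other markers, and Elovl6 at 1.06 and 0.91 between the leaning classes with at least 3 gate genes and without sebocyte-marker nuclei. Ryr1 is likewise among the markers that chose the nuclei left out. The median of all genes against the other nuclei was -0.10, and 0.25 with DESeq2, -0.56 with no filter, -0.32 with at least 3 gate genes and -0.25 without nuclei rich in other markers. Over 313 gene results, 3376 values under alternatives kept direction and side of the threshold, 182 lost it, 81 gained it, 31 moved and 17 reversed. Leaving out a replicate gave a ratio within 1 library with no test.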
